A study of Mus musculus with 6 samples.

Results

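The Sox genes encode transcription factors that share a DNA-binding HMG box and are sorted into lettered groups by the likeness of their proteins. The 10 described here are Sox4 and Sox11 (SoxC), Sox5 and Sox6 (SoxD), Sox8, Sox9 and Sox10 (SoxE) and Sox7, Sox17 and Sox18 (SoxF), measured in whole mouse kidneys at embryonic day 12.5. Every probe set, a group of short oligonucleotides read as 1 signal, was taken if its single annotated symbol was one of these. This found all 10 genes, of 18194 named by 1 symbol, and 37 of the 45101 probe sets on the array. There were 2 groups of 3 biological replicates with 1 array each: wild-type kidneys, and Ret-deficient kidneys, which lack the receptor tyrosine kinase of the ureteric bud. Both groups were of strain C57BL/6 and had no other allele or treatment named. The kidneys were whole, so all of their cell types were pooled, and the labels give neither the Ret allele nor the litters nor the number of embryos behind a replicate. The source field ascribes the knockout to the mother; the groups follow the titles and genotype fields, which ascribe it to the kidneys. P-values thus measure the spread between these samples.

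Each Sox group has a known place in the developing kidney and its neighbours. Sox8 and Sox9 are active in the tips of the ureteric bud, the epithelial outgrowth whose branching depends on the ligand GDNF and its receptor Ret, and Sox9 is also made in the mesenchyme around the ureter. Sox10 marks neural crest cells, which form the glia and neurons that enter the organ, SoxF factors act in blood and lymph vessel endothelium, SoxD factors work with Sox9 in cartilage, and SoxC factors are widespread in embryonic progenitors. In a whole organ, fewer cells of a type and less RNA per cell cannot be told apart.

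The labels were checked on Ret, whose brighter probe set read 10193 to 13315 in wild-type and 93.3 to 479.8 in Ret-deficient kidneys. No probe set of the array passed the limma test at an adjusted p of 0.05, Ret included (adjusted p = 0.299, and 0.188 for its dimmer probe set). Signals are given in MAS5 units on a linear scale, and 27 bacterial control probe sets, the brightest of which read 97.2 to 186.9 by array, served as the gauge of background. Wild-type replicate 1 stood apart from its group. Its ratio of 3 prime to 5 prime signal was 10.7 for beta-actin and 4.91 for Gapdh, against 3.88 to 5.21 and 1.86 to 2.31 on the other 5 arrays. Its log2 values correlated with those of the other wild-type arrays at 0.949 and 0.946, while those 2 arrays correlated with each other at 0.982. The gonad and adrenal marker Gata4 read 1389.6 on it, against 102.8 and 47.6 in wild-type replicates 2 and 3. Star, a marker of the same list, did not stand out there (703.5, against 769.8 and 359.8). In Ret-deficient replicate 1 the median of 17 ureteric epithelium markers stood at -3.09 on the log2 scale against the wild-type mean, compared with -0.42 and -0.71 in replicates 2 and 3. In Ret-deficient replicate 3 the median of 7 macrophage markers stood at 1.47. The part of these differences in the Sox results was not tested, and values without single arrays are given where they move a result.

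Of the 37 Sox probe sets 22 were bright enough to be tested, with at least 1 for each of the 10 genes, and 15 were not. Of the 22, none passed an adjusted p of 0.05, as for the 22519 tested probe sets as a whole (0%), and 2 had an unadjusted p under 0.05 in limma (5.36% of all tested). These were the bright Sox10 probe set and the dimmer Sox17 probe set, both lower in Ret-deficient kidneys. The groups did not overlap for 3 of the 22 (10.8% of all tested), of which 2 were lower in Ret-deficient kidneys (5.57% of all tested) and 1 was higher (5.19%). The signs were divided, with 12 negative and 10 positive log2 differences and a median of -0.0027, close to the median of -0.0097 over all tested probe sets. Differences are Ret-deficient minus wild-type means of log2(signal + 16), a scale that understates the change of dim probe sets.

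**Figure D1:**
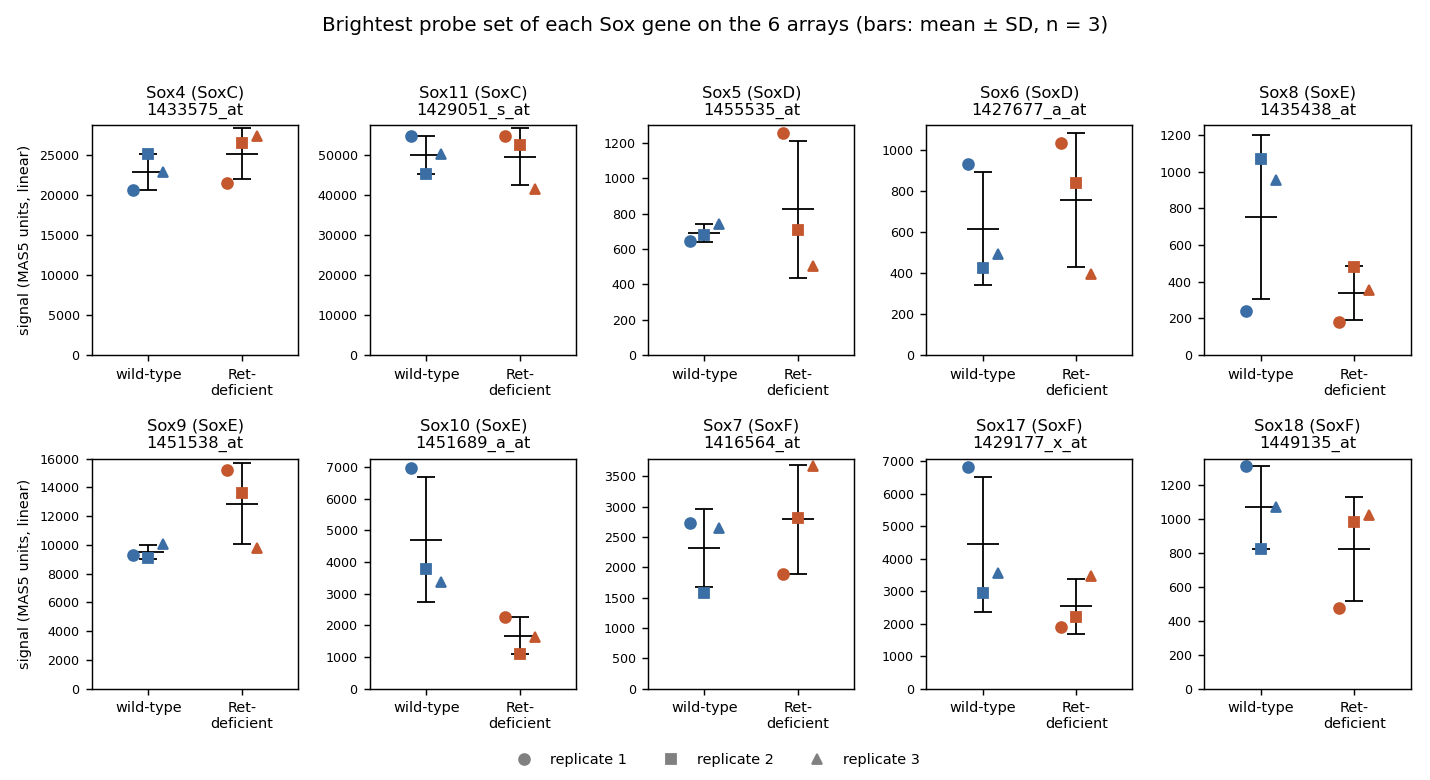
Signal of the brightest probe set of each of the 10 Sox genes (vertical axes, MAS5 units on a linear scale from 0) in wild-type (blue) and Ret-deficient (orange) kidneys, with a marker for each replicate and bars for the mean ± SD (n = 3). The groups are apart for Sox10, where wild-type arrays read 3362 to 6971 and Ret-deficient arrays 1100.4 to 2269, and overlap in the other 9 panels.

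Sox10 had the largest log2 difference of the 22 tested Sox probe sets and was lower in every Ret-deficient kidney. Sox10 directs the development of glia and other neural crest derivatives. Its bright probe set, 1451689_a_at, read 6971, 3770.1 and 3362 in wild-type replicates 1, 2 and 3, and 2269, 1100.4 and 1644 in Ret-deficient replicates 1, 2 and 3. The highest Ret-deficient array thus lay below the lowest wild-type array. The means were 4701 ± 1976 and 1671 ± 585 (SD, n = 3 per group). The log2 difference was -1.47 (SE 0.37, 95% interval -2.35 to -0.59), or 2.76-fold after 16 is added to each signal, with an unadjusted p = 0.00588 in limma. It did not pass over all tested probe sets (limma adjusted p = 0.861, and 0.319 to 0.998 over the alternatives), and an exact permutation test (two-sided) had p = 0.1, the smallest value that 3 arrays against 3 allow. Wild-type replicate 1, the array with the high 3 prime to 5 prime ratios, held the highest value, and without it the difference was -1.14. With any other array left out it lay between -1.72 and -1.20.

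The dimmer Sox10 probe sets gave less separation. Probe set 1424985_a_at, with a mean of 303.6 just under the limit of 304.5 for testing, read 797.1, 185.1 and 292.0 in wild-type and 284.4, 117.0 and 145.8 in Ret-deficient kidneys. Its groups overlapped, although its highest value was again wild-type replicate 1. Probe set 1425369_a_at read 170.9 in wild-type replicate 1 and 7.6 to 19.3 elsewhere, and was not above the brightest bacterial control on any array. No level of Sox10 is given from it.

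Markers of neural crest and glia were lower for 8 and higher for 4 of the 12 tested genes, of 17 found on the array. The median log2 difference of the list was -0.17, none passed the test, and 9 of the 17 were above the brightest control on all arrays. Their summed signal was 31139 to 37495 in wild-type and 28305 to 30493 in Ret-deficient kidneys. Without Tfap2a, left out after its values were seen, it was 23246 to 30927 and 25856 to 28056, and the groups overlapped. No other member was left out in this way, and such a sum rests mostly on the bright members. Ednrb, another of these, read 5974 to 6350 in wild-type and 5163, 5442 and 10907 in Ret-deficient kidneys. The median of the list against wild-type was -0.14 in Ret-deficient replicate 1, -0.0012 in replicate 2 and -0.79 in replicate 3, and Sox10 was -0.97, -2.0 and -1.43 on the same arrays. The array with the lowest Sox10 was the one where the median of the list was nearest to wild-type, but its members differed. Among the Ret-deficient arrays Ngfr, Mitf and the untested Cdh19 and Foxd3 were lowest in replicate 2, as was Sox10. The other members were lowest in replicate 1 or 3. Whether Sox10 follows the amount of neural crest was not tested. The members with the smallest p were Erbb3, Egr2 and Tfap2a. Erbb3, the neuregulin receptor of Schwann cell precursors, read 2931 to 3479 in wild-type and 436.6, 2042 and 1493 in Ret-deficient kidneys (log2 difference -1.54, SE 0.54). Egr2, a factor of myelinating glia, read 178.7, 171.0 and 36.4 in wild-type kidneys and 3110.2, 1185 and 144.9 in Ret-deficient ones. Its readings in wild-type replicates 1 and 3 were below the brightest control of their arrays. Tfap2a, an early neural crest factor, read 6568 to 7894 against 248.6, 4637 and 3053 (-2.22, SE 1.01). Without Ret-deficient replicate 1 the difference was -0.88 for Erbb3, -0.94 for Tfap2a and 1.83 for Egr2. Erbb3 and Tfap2a were lowest in Ret-deficient replicate 1, as were the ureteric epithelium markers, and Sox10 was not.

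Sox8 was lower on average in Ret-deficient kidneys, but 1 wild-type array lay among them. Its single probe set, 1435438_at, read 241.7, 1068 and 951.4 in wild-type replicates 1, 2 and 3, and 183.0, 478.5 and 356.5 in Ret-deficient replicates 1, 2 and 3. Wild-type replicate 1 lay below 2 of the 3 Ret-deficient arrays, and the other wild-type arrays lay above all of them. The log2 difference was -0.96 (SE 0.61, 95% interval -2.42 to 0.50) and did not pass in limma (adjusted p = 0.938, and 0.368 to 1 over the alternatives). By exact permutation p was 0.3. Without wild-type replicate 1 the difference was -1.62, with an unadjusted p = 0.0089 and an adjusted p = 0.951 in limma. Leaving out wild-type replicate 2 or 3 gave -0.59 or -0.67, and leaving out Ret-deficient replicate 1 gave -0.59.

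Sox9 was not lower in Ret-deficient kidneys on either tested probe set. Its brightest probe set, 1451538_at, read 9320.1, 9097 and 10041 in wild-type replicates 1, 2 and 3, and 15227, 13625 and 9803 in Ret-deficient replicates 1, 2 and 3. Replicates 1 and 2 of the Ret-deficient group lay above all wild-type arrays and replicate 3 lay among them. The means were 9486 ± 493 and 12885 ± 2787 (SD, n = 3), a log2 difference of 0.42 (SE 0.21, 95% interval -0.073 to 0.91). It did not pass in limma (adjusted p = 0.935, and 0.387 to 1 over the alternatives), with p = 0.2 in the exact permutation test.

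The second Sox9 probe set, 1424950_at, differed from the first on 1 array. It read 764.1, 4529 and 4816 in wild-type replicates 1, 2 and 3, and 5608, 5348 and 4868 in Ret-deficient replicates 1, 2 and 3. All Ret-deficient arrays lay above all wild-type arrays, with replicate 3 only just above. Its log2 difference was 1.03 (SE 0.68, limma adjusted p = 0.940), and without wild-type replicate 1 it was 0.17. After each probe set was centred on its mean over the arrays, these 2 readings of Sox9 lay 2.01 log2 units apart in wild-type replicate 1 and 0.13 to 0.57 apart on the other 5 arrays. Wild-type replicate 1 is the array with the high 3 prime to 5 prime ratios; the part of that in the gap was not tested. Another probe set, 1433889_at, was dim, at 117.5 to 189.7 over all arrays, and was above the brightest control on 4 of 6.

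A list of genes of the ureteric bud tip, where Sox8 and Sox9 are made, and of its Ret signalling was mostly negative. It also holds Gdnf, which the mesenchyme makes and which is counted among the nephron progenitors too, and Col2a1, counted among the cartilage genes too. Of its 15 tested genes 12 were below and 3 above 0, and its median was -0.42 on the log2 scale. The groups did not overlap for 5 of the 15, all lower (5.57% of all tested probe sets). None passed the test. The list holds Ret itself and was chosen with results of these arrays known, so its direction is not independent evidence. The 3 with the smallest p were Ret, Vsnl1, a neuronal calcium sensor, and Gdnf, the ligand of Ret. Vsnl1 read 1476 to 2969 in wild-type and 96.2, 314.0 and 502.9 in Ret-deficient kidneys, the first of these below the brightest control of its array. Gdnf read 2777 to 4442 against 1698 to 1799.9. Of the 17 tested ureteric epithelium markers all 17 were negative, with a median of -1.15. Tfap2b, an epithelial transcription factor, had -1.11 (SE 0.19), Gata3, a factor of the ureteric lineage, had -1.14 (SE 0.39) and the tight junction gene Cldn3 had -1.67 (SE 0.57). Cldn3 read 69.3 in Ret-deficient replicate 1, below the brightest control of that array, and without this array its difference was -0.95. The bright Sox9 probe set was 0.68, 0.52 and 0.049 against the wild-type mean in Ret-deficient replicates 1, 2 and 3, where the epithelial median was -3.09, -0.42 and -0.71. Sox9 was thus highest on the array where these markers were lowest, and from replicate 2 to replicate 3 both were lower. The mesenchyme around the ureter, another site of Sox9, had 4 positive and 7 negative of 11 markers, with a median of -0.27. Its members with the smallest p were Myocd (1.15, SE 0.27), a smooth muscle co-activator, Tbx3 (-0.72) and Tbx18 (0.36).

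**Figure D2:**
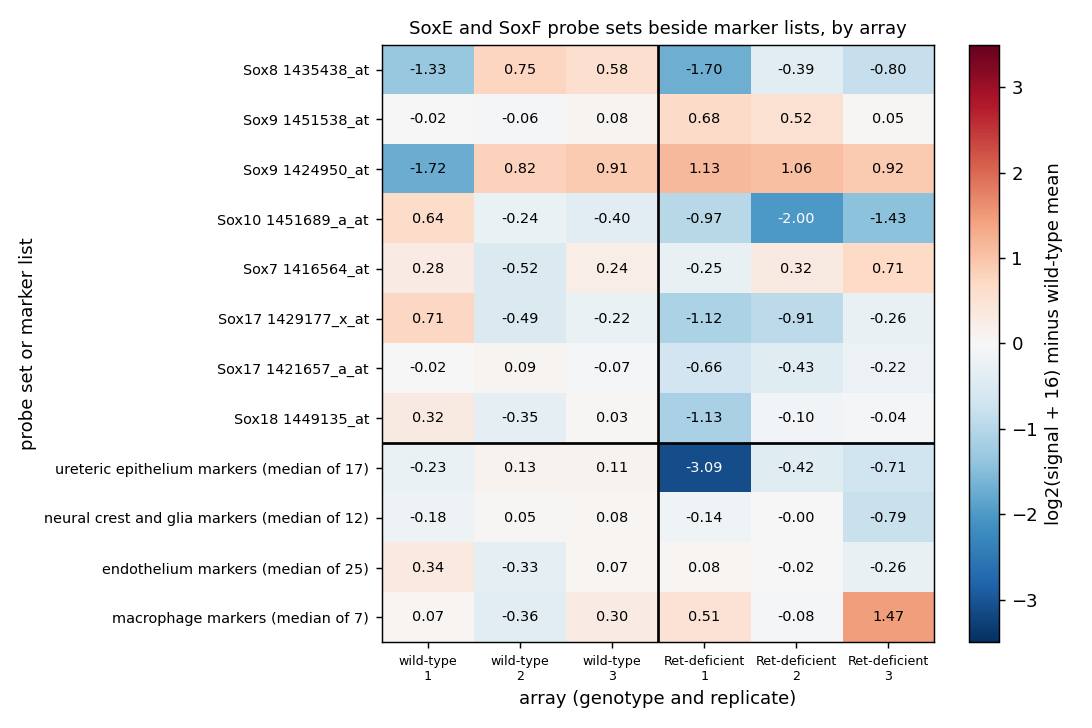
Each cell gives the log2(signal + 16) of an array minus the wild-type mean, for the 8 tested SoxE and SoxF probe sets (upper rows) and for the median of 4 marker lists (lower rows), with arrays in columns. Sox10 is lowest in Ret-deficient replicate 2 (-2.0), the ureteric epithelium markers in Ret-deficient replicate 1 (-3.09), and Sox8 and the second Sox9 probe set are low in wild-type replicate 1 (-1.33 and -1.72).

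Among the SoxF genes, Sox17 and Sox18 were lower on average and Sox7 was higher, with none past the test. Sox17 guides the endoderm and arterial endothelium. Its dimmer probe set, 1421657_a_at, read 439.7, 474.4 and 423.2 in wild-type and 276.6, 326.6 and 380.9 in Ret-deficient kidneys, so the groups did not overlap. The log2 difference was -0.43 (SE 0.17, 95% interval -0.85 to -0.017), with an unadjusted p = 0.0435 and an adjusted p = 0.921 in limma (0.368 to 1 over the alternatives). It lay between -0.54 and -0.32 with 1 array left out. The brighter probe set, 1429177_x_at, read 6827, 2951 and 3568 in wild-type and 1911, 2203 and 3481 in Ret-deficient kidneys. Here Ret-deficient replicate 3 lay among the wild-type arrays, and the value of 6827 stood well above the rest. Its log2 difference was -0.76 (SE 0.37, limma adjusted p = 0.935), and -0.40 without wild-type replicate 1. Both Sox17 probe sets were lowest in Ret-deficient replicate 1.

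Sox18, which directs lymphatic and vascular development, read 1310.1, 821.4 and 1069.5 in wild-type and 471.8, 979.4 and 1019.9 in Ret-deficient kidneys on its single probe set, 1449135_at. The groups overlapped, and 1 array, Ret-deficient replicate 1, held the low value. The log2 difference was -0.42 (SE 0.34, limma adjusted p = 0.950) and -0.068 without that array. It was -0.26 without wild-type replicate 1. Sox7, another vascular factor of the group, read 2733, 1568 and 2652 in wild-type and 1887, 2804 and 3676 in Ret-deficient kidneys on 1416564_at. Its log2 difference was 0.26 (SE 0.32, limma adjusted p = 0.963), and -0.0012 without wild-type replicate 2. The dim Sox7 probe set, 1432495_at, was above the brightest control on 1 array. On Ret-deficient replicate 1, Sox17, Sox18 and Sox7 were at -1.12, -1.13 and -0.25 against the wild-type mean. In Ret-deficient replicate 3 they stood at -0.26, -0.039 and 0.71.

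Endothelial markers were divided in sign. Of 28 listed genes 25 were tested, 12 above and 13 below 0, and their median was -0.0040 on the log2 scale. None passed the test, and the groups did not overlap for 1 (10.8% of all tested probe sets). In Ret-deficient replicate 1, where Sox17 and Sox18 were lowest, the median member was 0.081 against the wild-type mean, within the wild-type arrays (-0.33 to 0.34). It was -0.022 in replicate 2 and -0.26 in replicate 3. The summed signal was 95417 to 136524 in wild-type and 91992 to 120423 in Ret-deficient kidneys. The members with the smallest p were Pecam1 and Cdh5, junction proteins of endothelial cells, at 0.63 (SE 0.27) and 0.55 (SE 0.31), and the lymphatic factor Prox1, a known target of Sox18, at -0.46 (SE 0.29).

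The SoxC genes Sox4 and Sox11, which maintain progenitors and promote neuronal and mesenchymal development, showed small differences. The promoter windows of both are given because their brightest probe sets varied least over the arrays among the 10 genes, beside that of Sox8, which varied most. RefSeq entries (build GRCm38.p6) were matched for 5 of the 10 genes, and each window runs from 250 bases before to 50 after a transcript start. All 3 lie on the minus strand and are printed 5′ to 3′ along the gene, at chr13:28953650-28953949 for Sox4, chr12:27342669-27342968 for Sox11 and chr17:25570637-25570936 for Sox8. Capitals mark CCAAT boxes (CCAAT or ATTGG) and GC boxes (GGGCGG or CCGCCC), searched on both strands.
Sox4: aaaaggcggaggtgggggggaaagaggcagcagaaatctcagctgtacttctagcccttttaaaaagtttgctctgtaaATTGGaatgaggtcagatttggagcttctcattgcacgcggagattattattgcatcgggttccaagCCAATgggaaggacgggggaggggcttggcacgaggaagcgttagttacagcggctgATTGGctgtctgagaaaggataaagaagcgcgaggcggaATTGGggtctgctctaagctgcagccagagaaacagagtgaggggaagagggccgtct
Sox11: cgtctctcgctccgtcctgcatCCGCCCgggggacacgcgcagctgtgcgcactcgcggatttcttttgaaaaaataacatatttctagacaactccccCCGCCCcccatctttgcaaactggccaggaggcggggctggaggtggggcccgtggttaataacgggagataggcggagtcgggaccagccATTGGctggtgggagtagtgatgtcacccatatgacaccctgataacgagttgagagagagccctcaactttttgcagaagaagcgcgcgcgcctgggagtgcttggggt
Sox8: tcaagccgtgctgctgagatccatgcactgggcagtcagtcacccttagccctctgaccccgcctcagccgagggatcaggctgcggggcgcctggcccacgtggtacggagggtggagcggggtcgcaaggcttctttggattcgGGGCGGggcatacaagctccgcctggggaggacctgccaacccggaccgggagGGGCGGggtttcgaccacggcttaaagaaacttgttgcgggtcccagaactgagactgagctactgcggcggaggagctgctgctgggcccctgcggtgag
Sox4 holds 4 CCAAT boxes and no GC box, Sox11 holds 1 CCAAT box and 2 GC boxes, and Sox8 holds 2 GC boxes and no CCAAT box. Of 32851 promoter windows of this length, 37.4% hold a CCAAT box and 35.7% a GC box. The Sox core AACAAT (10.7% of windows), the ETS core CGGAAG (16.9%) and the TATA box TATAAA (13.6%), also searched on both strands, have no match in these 3 windows. None of these letters was tested for a link to the signals.

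Sox11 had 6 probe sets, all tested and all above the brightest control on every array. The brightest, 1429051_s_at, read 54647, 45194 and 50174 in wild-type and 54654, 52408 and 41377 in Ret-deficient kidneys. The groups overlapped throughout, and the highest readings of both were nearly equal. The 6 log2 differences ran from -0.14 to 0.019, 5 of them negative, with the widest 95% interval from -0.50 to 0.50 and the smallest adjusted p at 0.966 in limma. Median centring of the arrays, which moves the median of all tested probe sets from -0.0097 to 0.10, turned 3 of these negative values positive, so no direction is given for Sox11.

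Sox4 had 8 probe sets, of which 5 were tested. The brightest, 1433575_at, read 20555, 25034 and 22899 in wild-type and 21484, 26476 and 27385 in Ret-deficient kidneys. Its difference was 0.13 (SE 0.18). The next, 1449370_at, read 8226, 6741 and 8975 against 12521, 11424 and 6752, a difference of 0.32 (SE 0.27). Both pairs of groups overlapped. Ret-deficient replicate 3 was the highest of its group on the first probe set and the lowest on the second, so these readings of 1 gene ordered the arrays differently. The other 3 tested probe sets had differences of -0.0049, 0.13 and 0.18, and the adjusted p values of all 5 lay between 0.950 and 0.999 in limma. Of the 3 untested probe sets, 1443778_at and 1458332_x_at were not above the brightest control on any array, though their groups did not overlap. At such readings (0.1 to 112.1) no level is given.

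Genes known as SoxC targets or neuronal markers had 5 positive and 5 negative differences among 10 tested, with a median of -0.041 and none past the test. The neuronal tubulin gene Tubb3 read 291.6, 612.3 and 713.6 in wild-type and 354.7, 204.8 and 174.5 in Ret-deficient kidneys (log2 difference -1.06, SE 0.40). Dcx, which encodes the microtubule protein doublecortin, read 890.6 to 1590.1 against 2559, 1455 and 6753 (1.27, SE 0.55, and 0.67 without Ret-deficient replicate 3), and the RNA-binding protein gene Elavl4 had -0.70 (SE 0.31). The groups overlapped for all 3.

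The SoxD genes Sox5 and Sox6, which lack an activation domain of their own and cooperate with Sox9 in cartilage, had 3 of 11 probe sets bright enough to be tested, none of which passed. Sox5 on 1455535_at read 647.2, 680.5 and 744.8 in wild-type and 1259.9, 707.1 and 506.2 in Ret-deficient kidneys. The Ret-deficient arrays lay above, within and below the wild-type range. Its log2 difference was 0.15 (SE 0.33, limma adjusted p = 0.982) and -0.20 without Ret-deficient replicate 1. The other 6 Sox5 probe sets had mean signals under the limit for testing, and 2 of them were above the brightest control on no array.

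Sox6 gave opposite signs on its tested probe sets. Probe set 1427677_a_at read 931.0, 421.8 and 492.3 in wild-type and 1031, 840.1 and 393.4 in Ret-deficient kidneys. Its difference was 0.27 (SE 0.44). Probe set 1434918_at read 898.4, 305.1 and 447.8 against 492.3, 489.0 and 257.6, a difference of -0.32 (SE 0.43). On both, wild-type replicate 1 was the highest wild-type array and Ret-deficient replicate 3 the lowest Ret-deficient array. Neither passed in limma (adjusted p = 0.978 and 0.969), and without wild-type replicate 1 the differences were 0.60 and 0.096. The untested 1426018_a_at read lowest in wild-type replicate 1 (32.2), where the other Sox6 probe sets read highest of the wild-type arrays.

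Cartilage matrix genes, which Sox9 drives with Sox5 and Sox6, had 4 positive and 3 negative differences among 7 tested of 16, with a median of 0.086. Among the tested genes no groups were apart and none passed. Of the untested genes, Col9a2 and Epyc were higher and Comp lower in Ret-deficient kidneys without overlap. Col9a2 was above the brightest control on 4 arrays, Epyc on 1 and Comp on 6. Hapln1, a link protein of the cartilage matrix, had a log2 difference of -0.24 (SE 0.16) and the matrilin gene Matn3 -0.71 (SE 0.55). Col2a1, which encodes type II collagen and is a direct target of Sox9, read 6807, 10145 and 11901 in wild-type and 23933, 13548 and 6954 in Ret-deficient kidneys (0.48, SE 0.46). Its groups overlapped, and without Ret-deficient replicate 1, the highest array, the difference was 0.051.

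**Figure D3:**
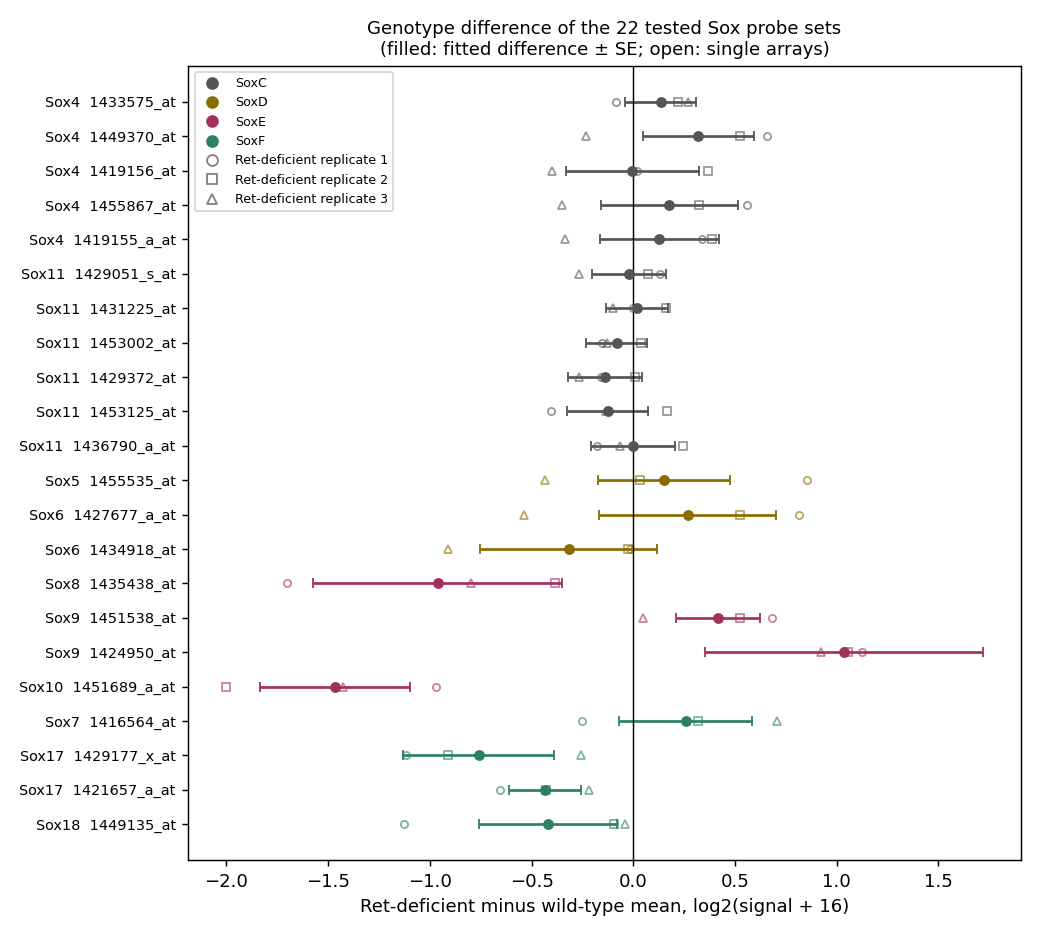
Log2 difference, Ret-deficient minus wild-type, on the log2(signal + 16) scale for the 22 tested Sox probe sets, coloured by Sox group. Filled points with bars are the fitted difference ± SE and open markers are the 3 Ret-deficient arrays against the wild-type mean. The SoxC values lie near 0 (-0.14 to 0.32), and the values farthest from 0 belong to SoxE, with Sox10 at -1.47 and the second Sox9 probe set at 1.03.

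Set side by side with 1 probe set per gene, the groups of Sox genes differed in size and sign. The median log2 difference was -0.96 for the 3 SoxE genes, -0.42 for the 3 SoxF genes, 0.21 for the 2 SoxD genes and 0.056 for the 2 SoxC genes. These are descriptions of few genes and were not tested against each other. They leave out Sox13 (SoxD, -0.56) and Sox12 (SoxC, 0.42), which are described below. The SoxE median hides opposite signs, since Sox8 and Sox10 were negative and Sox9 positive. On the Ret-deficient arrays the SoxE median was -0.97, -0.39 and -0.80 for replicates 1 to 3, and on the wild-type arrays -0.059 to 0.083. Each wild-type median was the value of Sox9, and each Ret-deficient median that of Sox8 or Sox10. Sox8 itself ran from -1.33 to 0.75 and Sox10 from -0.40 to 0.64 over the wild-type arrays. The SoxF median was -1.12, -0.096 and -0.039, and was -0.068 without Ret-deficient replicate 1. The SoxD median was 0.83, 0.28 and -0.49, and was -0.10 without Ret-deficient replicate 1.

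Of the 10 other Sox genes listed, all were on the array and 3 were tested. Sox2, a SoxB factor of neural progenitors and glial precursors, read 1268, 807.4 and 757.0 in wild-type and 433.8, 213.5 and 454.6 in Ret-deficient kidneys. The groups did not overlap, and the log2 difference was -1.36 (SE 0.34, unadjusted p = 0.00608, limma adjusted p = 0.861), and -1.13 without wild-type replicate 1. Sox13, another SoxD gene, read 3049, 1911 and 1999.9 against 1727, 1372 and 1522, again without overlap (-0.56, SE 0.23, limma adjusted p = 0.921), and -0.35 without wild-type replicate 1. Sox12, another SoxC gene, read 4047, 7495 and 6872 against 9026, 8626 and 6414 and overlapped (0.42, SE 0.28, and 0.14 without wild-type replicate 1).

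The genes nearest in pattern to the 3 most variable Sox genes were sought by the root mean square distance of log2 values over the 6 arrays, each gene centred on its own mean. For Sox10 the nearest of 11591 genes was Sox2 at 0.20 log2 units, followed by the MHC class I gene H2-Bl at 0.24 and the synaptic adhesion gene Lrrc4 at 0.24, where the median gene lay at 0.89. For Sox8 they were Wfdc2, a secreted protease-inhibitor-like protein of epithelia, at 0.32, Slc35g1 at 0.34 and Fjx1 at 0.40, with a median of 0.94. Wfdc2 read 1677, 7887 and 7054 in wild-type and 1231, 3055 and 4424 in Ret-deficient kidneys, so it too was low in wild-type replicate 1. For Sox17 they were the Rac exchange factor gene Prex2 at 0.12, Adh6b at 0.15 and Rcsd1 at 0.17, with a median of 0.64. The genes named here for Sox10 and Sox17 all read highest in wild-type replicate 1, as did both Sox genes on their brightest probe sets. The part of that array in these matches was not tested.

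The remaining marker lists had no member past the test. Nephron progenitors had 5 positive and 7 negative of 12, with a median of -0.017 and the smallest p in Gdnf (-0.97), Tmem100 (-0.78) and Osr1 (-0.46). Induced nephron genes had 2 positive and 8 negative of 10, with a median of -0.35, led by Greb1 (-1.29), Bmper (0.36) and Lhx1 (-3.13). Lhx1 read 2247, 3142 and 2797 in wild-type kidneys and 5.0, 1113 and 1242 in Ret-deficient ones. The value of 5.0 was below the brightest control of Ret-deficient replicate 1, and the difference was -1.19 without that array. Renal stroma had 10 positive and 3 negative of 13, with a median of 0.25, led by Dcn (1.20), Foxd1 (0.93) and Col3a1 (0.44). Erythroid genes had 5 positive and 2 negative of 7, with a median of 0.055, led by Alas2 (0.80), Ermap (0.47) and Gata1 (-0.33). Macrophage genes had 7 positive of 7, with a median of 0.63, led by C1qb (0.68), C1qc (0.94, and 0.37 without Ret-deficient replicate 3) and Fcer1g (0.63). Of the gonad and adrenal list, 2 of 8 were tested, Star (-0.38) and Gata4 (-0.74), and of skeletal muscle 2 of 6, Tnnc1 (-0.29) and Actc1 (0.45). Gata4 read 1389.6 in wild-type replicate 1 and 47.6 to 393.9 on the other arrays, and was above the brightest control on only 2 of 6.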

How the data were processed

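RNA of 6 whole kidney samples was measured on Affymetrix mouse whole-genome arrays. The deposited values are signal intensities made by the authors with MAS5, per the submitters' processing notes; no source used here gives its version or scaling target. They share a trimmed mean (2% off each end) near 2500.2 and were not normalized further. Per the series' design text RNA was amplified before hybridization, a step the labelling protocol does not mention. Without the 64 control probe sets, the brighter 22519 (mean signal over the arrays of at least 304.5, their median) were tested. Values were used as log2(signal + 16). Group differences were fitted by limma 3.58.1 under R 4.3.3 (lmFit, eBayes, no covariates), adjusted by Benjamini-Hochberg over all tested probe sets at 0.05. The fit was tested on simulated data. It recovered 22.4% of simulated log2 changes of 1, 68.7% of those of 2 and 92.4% of those of 4, with 9 false calls. Single probe sets were also compared by exact permutation tests in scipy 1.17.1. A gene was represented by its brightest probe set. Symbols came from the array annotation, updated by gene ID with RefSeq names for 99.42% of 34958 probe sets with 1 symbol; 932 had several and 9211 none. Named were all Sox probe sets, Ret, the 3 genes with the smallest p of each list and the 3 nearest in pattern; others were chosen after their values were seen. Members and lists were chosen with earlier results of these data known. Samples sharing a replicate number did not deviate together (correlations of 0.041, -0.036 and -0.11). The alternatives were pseudocounts of 1 and 64, no filter or the top 30%, quantile normalization, median centring, an intensity trend, array weights, the replicate number as a block, an adjusted p of 0.1, averaging all probe sets of a gene, and each array left out. The number of arrays limits the precision. Raw probe intensities and detection calls were not used here.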

Additional observations from a re-analysis of the deposited data

How the results depend on the processing

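No Sox probe set passed under any of the 16 alternatives, and Sox8, both Sox9, Sox10, both Sox17 and Sox18 probe sets kept their sign under all that could be fitted to them. The cause of the changes below was not tested. Over the whole array 0 probe sets passed, 2 with median centring or array quality weights, 1 with an intensity trend, and 0 to 1 with an array left out; in limma 1208 had an unadjusted p under 0.05, 1134 with the replicate block and 2541 with array quality weights. The block, for samples that share only a number, left Sox10 at -1.47 (adjusted p = 0.847) and changed no call. The SoxC median was 0.17 with median centring and -0.12 when all probe sets of a gene were averaged. That average includes Sox4 1458332_x_at (-1.27) and 1443778_at (-1.25), which were above the brightest control on no array and for which no level is given. The SoxE median was -1.27 with array quality weights and -1.20 to -0.59 with an array left out. Signs turned with median centring for Sox4 1419156_at (0.11) and for Sox11 1429051_s_at (0.091), 1453002_at (0.030) and 1436790_a_at (0.11). They turned with array quality weights for Sox4 1419156_at (0.30), Sox11 1429051_s_at (0.11), Sox6 1434918_at (0.26), Gata1 (0.46) and Gata4 (0.34), and with quantile normalization for Sox11 1431225_at (-0.017). With an array left out the ranges that cross 0 were -0.19 to 0.30 for Sox4 1419156_at, -0.082 to 0.44 for 1455867_at and -0.045 to 0.36 for 1419155_a_at. They were -0.098 to 0.10 for Sox11 1429051_s_at, -0.053 to 0.080 for 1431225_at, -0.27 to 0.015 for 1453125_at and -0.15 to 0.089 for 1436790_a_at. They were -0.20 to 0.44 for Sox5 1455535_at, -0.0075 to 0.67 for Sox6 1427677_a_at, -0.66 to 0.096 for Sox6 1434918_at and -0.0012 to 0.51 for Sox7. Among other genes they were -0.18 to 0.98 for Ermap, -1.11 to 0.23 for Gata1, -1.63 to 0.60 for Gata4 and -0.79 to 1.59 for Actc1. Probe sets near the brightest bacterial control carry little signal, and the number of arrays limits all values.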
